A study of Arabidopsis thaliana with 30 samples.

Results

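UDP-glycosyltransferase (UGT) genes are described here across ChIP-seq peak lists of Arabidopsis seedlings. Members were the nuclear protein-coding genes whose symbol or synonym in the TAIR10.1 annotation is UGT followed by 2 digits, a letter and a number, as in UGT74E2. The rule read names alone, so a glycosyltransferase gene without such a name was not a member. It found 64 members among 27444 nuclear protein-coding genes. They belong to 15 families and to 9 lettered UGT groups, plus 3 members outside the letters: the sterol glucosyltransferases UGT80A2 and UGT80B1 and UGT81A1, the chloroplast galactolipid synthase MGD1.

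The series profiled BRM, the ATPase of a SWI/SNF chromatin remodelling complex, the bromodomain proteins BRD1, BRD2 and BRD13, and acetylated histone H4, in seedlings aged 14 days. There were 10 groups with 2 replicates each. GFP fusions were BRM-GFP, alone and in the brd1/2/13 triple mutant, the fusions of BRD13, BRD1 and BRD2, and BRD2-dBromo-GFP, by its name a BRD2 form with an altered bromodomain. The marks H4K5ac and H4K8ac were each profiled both in WT and in brd1/2/13. The fusions were precipitated with a GFP antibody. The labels give the fusions without brd1/2/13 in their name no genotype, while the design text of the series ties brm-1 and brd1/2/13 to BRM, brd1 to BRD1 and brd2 to BRD2, so the backgrounds of these fusions are not settled here. The titles mark the replicates as bio1 and bio2, and whether these were separate plantings is not stated, so a p-value here covers the scatter of these libraries, and that scatter may be technical. Seedlings hold many cell types, and signal in fewer cells cannot be told apart from weaker signal per cell.

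UGTs move a sugar from a UDP-sugar onto a small molecule, which changes its solubility, activity and storage. Plants have many of them, and their acceptors include hormones (auxin, cytokinin, abscisic acid, salicylic acid, brassinosteroids), flavonoids, the monolignol precursors of lignin, glucosinolate precursors and foreign chemicals. The letters A to N mark branches of the plant UGT tree. Many members stand in tandem arrays of close copies, and 42 of the 64 members lay in 16 arrays, defined as runs of members no more than 10 kb apart. Members were short genes with few introns: 35 of 64 (54.7%) had a transcript of a single exon, against 21.5% of all genes, and their median length was 1849 bp, against 2078 bp.

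Each value below is the fold enrichment that the authors' peak caller gave to the strongest peak overlapping a gene's window, which is the gene body plus 1 kb upstream. A region is a stretch of merged peaks that holds a peak of both replicates. The summit is the highest point of a peak. Folds belong to each list and describe peaks within it.

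The sequences at the BRM-GFP summits show where in these genes the protein was found. The 101 bases around the mean summit of both replicates are given for the 4 retained and the 4 lost members with the highest BRM-GFP fold among those whose summits lay within 200 bp of each other, nearest to the member's own start and away from untranslated regions and other noncoding exons. Retained members kept a BRM-GFP peak in both brd1/2/13 lists, and lost members had none. All are on the strand of the gene, from the TAIR10.1 assembly, and capitals mark matches to 4 motifs that were searched on both strands: CACGTG (the G-box), TGACG (the core bound by TGA factors), TTGACC (a W-box) and GAGAGA (a GA repeat, whose matches may overlap).
UGT85A2, retained, chr1:7897266-7897366, minus strand: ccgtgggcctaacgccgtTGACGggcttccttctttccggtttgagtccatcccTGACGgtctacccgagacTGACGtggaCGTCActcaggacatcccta
UGT89B1, retained, chr1:27785232-27785332, plus strand: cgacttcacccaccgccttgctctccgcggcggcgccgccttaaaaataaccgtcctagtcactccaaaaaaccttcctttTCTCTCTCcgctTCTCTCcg
UGT71C5, retained, chr1:2224367-2224467, plus strand: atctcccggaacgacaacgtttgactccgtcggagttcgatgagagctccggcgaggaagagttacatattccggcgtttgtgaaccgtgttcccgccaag
UGT72E1, retained, chr3:18855542-18855642, minus strand: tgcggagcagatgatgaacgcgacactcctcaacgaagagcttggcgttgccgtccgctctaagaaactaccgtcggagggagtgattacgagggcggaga
UGT76B1, lost, chr3:3555764-3555864, plus strand: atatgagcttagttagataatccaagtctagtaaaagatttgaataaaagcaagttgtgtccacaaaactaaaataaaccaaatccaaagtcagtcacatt
UGT74B1, lost, chr1:8526791-8526891, minus strand: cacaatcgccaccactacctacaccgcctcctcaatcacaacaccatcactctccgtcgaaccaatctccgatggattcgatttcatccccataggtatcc
UGT84A4, lost, chr4:8857312-8857412, minus strand: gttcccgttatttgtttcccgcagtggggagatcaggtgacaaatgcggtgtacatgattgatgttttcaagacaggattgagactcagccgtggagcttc
UGT76E1, lost, chr5:24007979-24008079, minus strand: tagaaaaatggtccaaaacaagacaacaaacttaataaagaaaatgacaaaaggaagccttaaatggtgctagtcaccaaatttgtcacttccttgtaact

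All 4 stretches of retained members were coding sequence, centred 445, 354, 792 and 1448 bp after the gene start, and their G+C content was 59.4%, 56.4%, 55.4% and 57.4% in the order given. Of the lost members, UGT74B1 and UGT84A4 also had coding summits, with 51.5% and 48.5% G+C. The stretches of UGT76B1 and UGT76E1 lay 740 and 122 bp upstream of the start, in sequence with 29.7% and 32.7% G+C. The TGACG core occurred 4 times in the UGT85A2 stretch, and the GA repeat 3 times in that of UGT89B1. The other 6 stretches held none of the 4 motifs. At UGT89B1 the mean mutant summit lay 1436 bp after the start, outside the printed stretch.

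The list-wide facts that touch these genes are few. The 20 lists held between 6131 and 20742 peaks. Those of BRM-GFP had 15562 and 16971, and those of BRM-GFP in brd1/2/13 had 6131 and 7051. Background coverage, which stands in for depth, came to 10 and 18.6 reads in the BRM-GFP lists, 36.4 to 37.0 in BRM-GFP in brd1/2/13 and 24.1 to 38.1 in the other lists. The largest q was 0.00961 and 0.00997 in the mutant BRM-GFP lists and 0.036 to 0.0499 in the others. Immunoprecipitation strength and genotype cannot be told apart in these lists.

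UGT genes were often occupied. BRM-GFP had a region at 49 of the 64 members (76.6%), where the share over all genes was 55.8%. BRD1-GFP had a region at 55 members (all genes 66.3%), BRD2-GFP at 49 (63.4%), BRD13-GFP at 52 (56.0%) and BRD2-dBromo-GFP at 47 (62.6%). H4K5ac had a region at 50 members in WT (70.7%) and at 51 in brd1/2/13 (72.1%). H4K8ac had one at 50 members in WT (65.8%) and at 47 in brd1/2/13 (65.8%). In the mutant, BRM-GFP had a region at 23 members (20.8%). The cytochrome P450 genes, another large family of specialised metabolism, had a BRM-GFP region at 115 of 234 (49.1%) and a WT H4K8ac region at 99 (42.3%). These shares are descriptions and were not tested against each other.

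**Figure D1:**
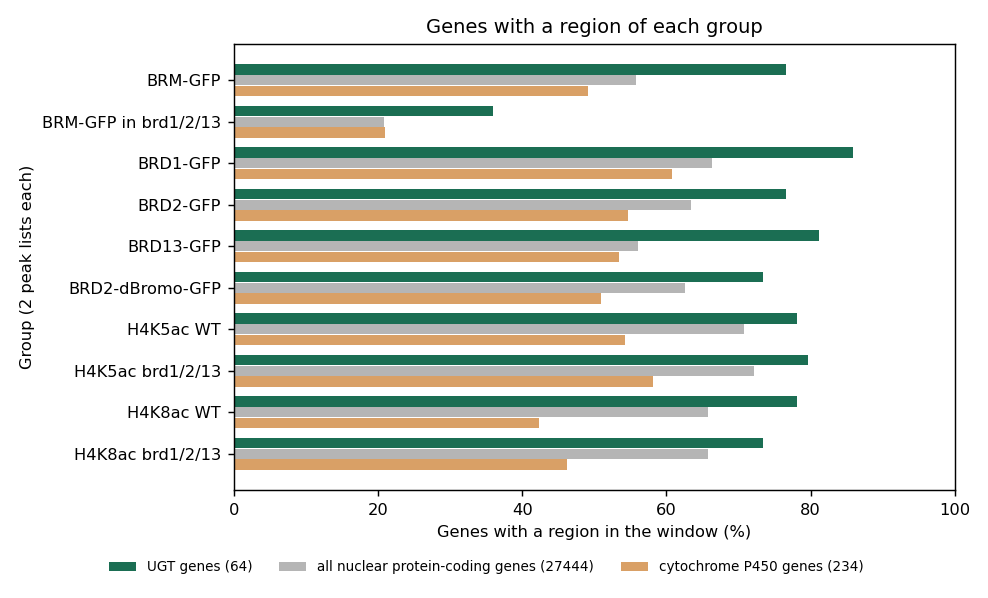
Percentage of genes with a region of each of the 10 groups in the gene window, for the 64 UGT genes, all 27444 nuclear protein-coding genes and 234 cytochrome P450 genes. The UGT share was above that of all genes in each of the 10 groups, from 35.9% for BRM-GFP in brd1/2/13 to 85.9% for BRD1-GFP.

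BRM and all 3 BRD proteins shared 44 members (49.5% over all genes), and regions of all 10 groups were found at 21 (18.1%). Of the 49 members with BRM-GFP, 44 thus had all 3 BRD proteins, where the share over all genes with BRM-GFP was 88.6%. At least 1 BRD protein but no BRM-GFP region was found at 9 members (14.3%). No region of any group was found at 4 members (17.1%): UGT84B2, UGT76E11, UGT73C7 and UGT79B6, the last an enzyme of pollen flavonols. UGT85A7 and UGT72E3 had regions of acetylated histones only.

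The members' strongest peaks ranked higher within the lists of the GFP proteins than within those of acetylation. Each percentile sets a window's strongest peak against every peak of the list, which favours high values at any gene. No percentile over all genes was computed, so these ranks do not set members apart from other genes. The median member's strongest peak stood at percentile 70.6 of the BRM-GFP folds and 77.9 of the BRD13-GFP folds, but at 40.9 of the WT H4K5ac folds and 47.8 of the WT H4K8ac folds. Mean fold over both replicates ran from 2.09 at UGT78D1 to 10.1 at UGT88A1 for BRM-GFP, with a median of 4.43 (all genes with a region 4.10). For BRD13-GFP it ran from 1.91 at UGT71B8 to 16.6 at UGT85A3, with a median of 5.95 (all genes 4.41). For WT H4K5ac the median was 3.45 (all genes 4.71).

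**Figure D2:**
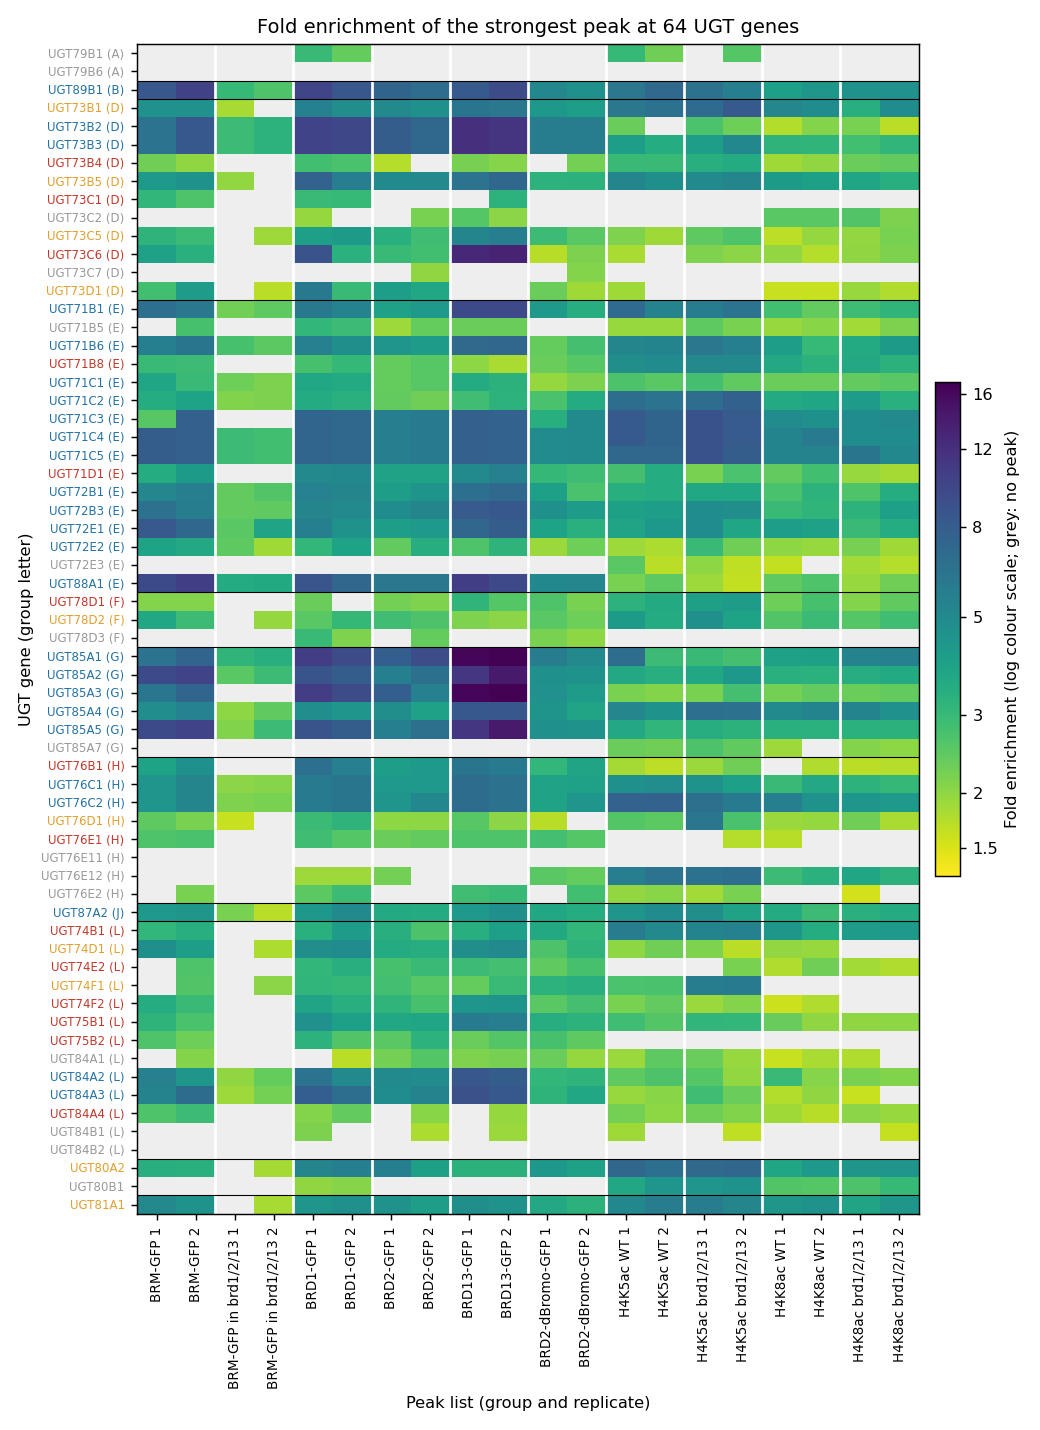
Fold enrichment of the strongest peak (colour, log scale, grey for no peak) at each of the 64 UGT genes (rows, by UGT group, with the group letter) in each of the 20 peak lists (columns). Gene names are blue where BRM-GFP was retained in brd1/2/13, yellow where partly retained, red where lost and grey where BRM-GFP had no region. The darkest cells are BRD13-GFP at UGT85A1 and UGT85A3, with 16.4 and 16.8.

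BRM-GFP was next compared with BRM-GFP in brd1/2/13, which sets BRM occupancy without the BRD proteins beside that with them. A BRM-GFP region counted as retained if both mutant lists had a peak on it, as partly retained if 1 of them did, and as lost if neither did. Of the 49 members with BRM-GFP, 14 were lost (28.6%, 41.0% over all genes with BRM-GFP), 10 were partly retained (20.4%, all genes 15.1%) and 25 were retained (51.0%, all genes 43.9%). BRM-GFP peaks were found at 47 and 52 members in its own lists and at 26 and 30 in the mutant lists. The means were 49.5 ± 3.54 and 28.0 ± 2.83 (SD, n = 2), and the groups did not overlap. These lists had peaks at 73.4% and 81.2% of the members in BRM-GFP and at 40.6% and 46.9% in the mutant, and at 56.6% and 62.8% and then 23.3% and 26.3% of all genes. With equal numbers of peaks in every list, the difference of -21.5 members became -0.5. The exact permutation test over the 4 lists gave p = 0.333, two-sided, the smallest p that 2 lists against 2 allow, so it cannot pass 0.05.

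Status followed the strength of the BRM-GFP peak. BRM-GFP peaks of both lists overlapped the windows of 47 of these members. Of the 9 with a mean fold under 3, 8 were lost (86.1% over all genes), 1 was partly retained (9.95%) and 0 were retained (3.92%). All 18 with a mean fold of 5 or more were retained (87.2%), where 4.96% of all such genes were lost and 7.87% partly retained. UGT71C3 and UGT85A3 among them had no mutant peak in their own window and were retained through regions shared with neighbours. Several of the 18 had the same strongest peak as a neighbour, such as UGT71C5 and UGT71C4, so they are not 18 separate peaks. Of the 20 between 3 and 5, 5 were lost (45.3%), 8 were partly retained (23.9%) and 7 were retained (30.8%). The median fold was 2.94 at lost, 3.48 at partly retained and 6.11 at retained members, and 3.01, 3.87 and 5.96 over all genes. When only the best 6129 peaks of each list were used, 27 members had BRM-GFP, of which 1 was lost, 5 were partly retained and 21 were retained. Over all genes 13.3% were then lost. With the demand that mutant peaks cover at least 50% of a region, 31 members were lost and 11 were retained (all genes 68.8% and 14.9%), so the sizes of these classes rest on the definition.

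**Figure D3:**
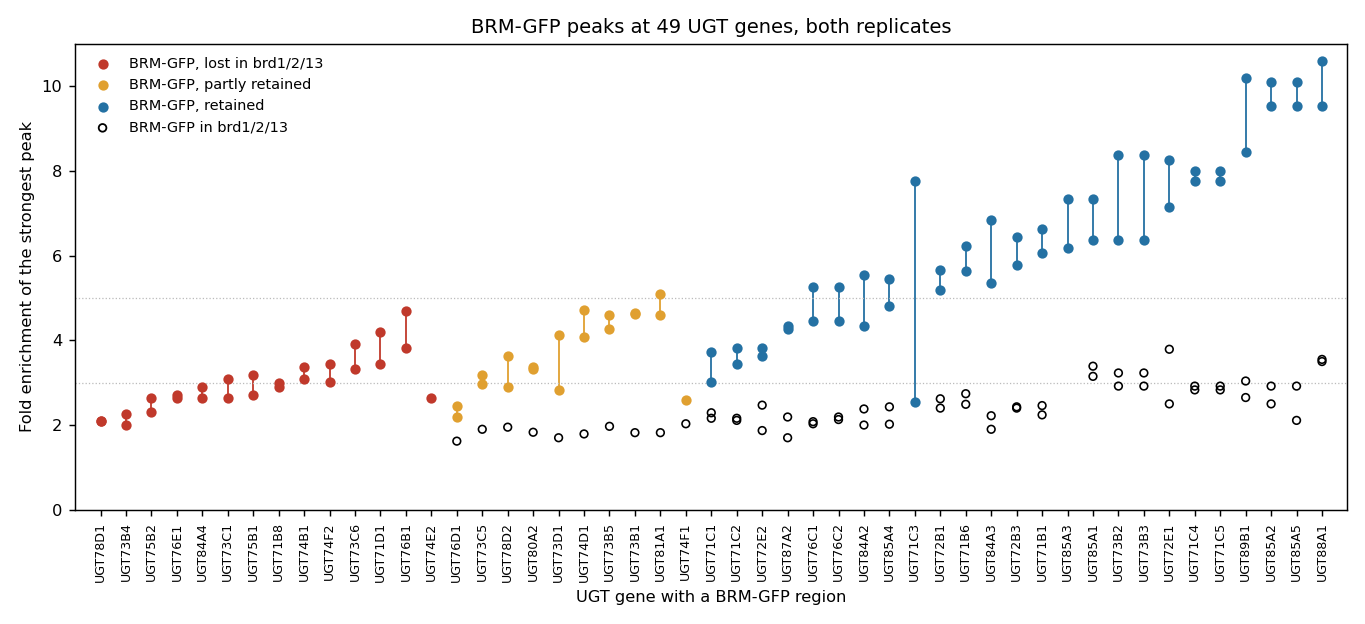
Fold enrichment of the strongest BRM-GFP peak (filled points, joined for both replicates) and of BRM-GFP in brd1/2/13 (open circles) at the 49 UGT genes with a BRM-GFP region, ordered by status and mean fold. Dotted lines mark folds of 3 and 5, and every gene whose mean is 5 or more is in the retained class, with UGT88A1 highest at 9.54 and 10.6. UGT71C3 and UGT85A3 of that class have no open circle, as no mutant peak overlapped their windows.

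The retained members with the strongest BRM-GFP came from several branches. At UGT88A1 of group E (AT3G16520, chromosome 3, 5618408 to 5620969), BRM-GFP fold was 9.54 and 10.6, and 3.50 and 3.55 in the mutant lists. In its window BRD1-GFP was 8.60 and 7.27, BRD2-GFP 6.10 and 6.07, BRD13-GFP 10.6 and 9.66, and BRD2-dBromo-GFP 5.10 and 5.16. These were different peaks. The summit of BRD1-GFP list 1 was nearest to the start of PAP1, and those of BRD1-GFP list 2 and BRD2-GFP to that of AT3G16510. The BRD13-GFP and BRD2-dBromo-GFP summits lay 16 to 65 bp after the start of UGT88A1. H4K5ac at UGT88A1 was low, at 2.18 and 2.45 in WT and 1.89 and 1.64 in brd1/2/13, and its H4K8ac was 2.43 and 2.63 in WT and 1.93 and 2.26 in the mutant. The BRM-GFP summit lay 2990 bp after its start, beyond the annotated end and nearest to the start of AT3G16510. The peak therefore cannot be assigned to UGT88A1 alone. Another BRM-GFP region, from 5619513 to 5621345, lay over its start and had peaks in both mutant lists.

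UGT89B1 of group B had BRM-GFP folds of 8.45 and 10.2 and mutant folds of 3.04 and 2.65. The H4K5ac folds in its window were 6.14 and 7.07 in WT and 6.52 and 5.59 in brd1/2/13. These H4K5ac summits and the mutant BRM-GFP summits lay in its coding sequence but nearest to the start of AT1G73885. UGT72E1, which glucosylates monolignol aldehydes and related compounds, had BRM-GFP folds of 8.27 and 7.15 and mutant folds of 2.50 and 3.79. The windows of UGT88A1, UGT89B1 and UGT72E1 thus overlapped a peak in each of the 4 BRM-GFP lists, with lower folds in the mutant ones.

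UGT71C5, which conjugates abscisic acid with glucose, shared a single strongest BRM-GFP peak with its neighbour UGT71C4. The folds were 8.00 and 7.76, and 2.92 and 2.83 in the mutant. H4K5ac was 8.22 and 7.45 at UGT71C4 in WT and was 8.89 and 8.12 in brd1/2/13, the highest mean among members in either background. UGT71C3, which overlaps UGT71C4 at its end, counted as retained through the same region although it had no mutant peak in its own window. Its BRM-GFP fold was 2.54 in list 1, with the summit in its own coding sequence, while in list 2 it overlapped the wide peak of 7.76 whose summit is nearest to the start of UGT71C5.

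UGT73B3 and UGT73B2 of group D, the former known from defence against bacteria, shared a peak in the same way, with BRM-GFP folds of 6.36 and 8.37 and mutant folds of 2.92 and 3.23. BRD13-GFP was 11.9 and 11.5 there and BRD1-GFP 10.1 and 9.73. The BRM-GFP summit lay 370.5 bp before the start of UGT73B3 and 2245.5 bp after that of UGT73B2, close to its end. Their neighbour UGT73B1 was only partly retained, with 4.63 and 4.65 in BRM-GFP and 1.82 in mutant list 1.

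Lost members had weaker BRM-GFP peaks, and their BRD and acetylation values differed widely. UGT76B1 glucosylates N-hydroxypipecolic acid and salicylic acid in immunity. Its BRM-GFP folds were 3.82 and 4.70, its BRD1-GFP folds 6.63 and 5.56 and its BRD13-GFP folds 6.29 and 5.93, with H4K5ac at only 1.83 and 1.68 in WT. UGT71D1 of group E had BRM-GFP folds of 3.45 and 4.19 and WT H4K5ac folds of 2.78 and 3.45.

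UGT74B1 makes the thioglucose bond of glucosinolates. Its BRM-GFP folds were 3.09 and 3.37, while H4K5ac reached 5.76 and 5.05 in WT and 5.33 and 5.52 in brd1/2/13. UGT71B8 was alike in this, with BRM-GFP at 3.0 and 2.91 and WT H4K5ac at 4.79 and 4.92. Both genes therefore had no BRM-GFP peak in the mutant and H4K5ac peaks in all 4 lists.

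UGT74F2, one of the salicylic acid glucosyltransferases, had BRM-GFP folds of 3.45 and 3.01. UGT75B1, which also glucosylates abscisic acid, had 3.18 and 2.71. UGT73C1, a cytokinin glucosyltransferase, had 3.09 and 2.65 and no acetylation peak in any list. UGT73C6, which acts on flavonols and brassinosteroids, had BRM-GFP folds of 3.91 and 3.32. The BRD13-GFP peaks that overlapped its window had folds of 12.8 and 13.3, but they were about 5 kb wide (4916 and 5145 bp) and had their summits 5001 and 4981 bp after its start, nearest to AT2G36770. The other lost members (UGT84A4, UGT76E1, UGT75B2, UGT73B4, UGT78D1 and UGT74E2) had BRM-GFP folds between 1.99 and 2.91 in the lists with a peak.

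The 4 partly retained members with the strongest BRM-GFP each had a single weak mutant peak. UGT81A1 (MGD1) had BRM-GFP folds of 5.09 and 4.59 and a fold of 1.82 in mutant list 2. UGT73B5, which also acts in defence, had 4.27 and 4.59, and 1.97 in mutant list 1. UGT74D1, which glucosylates auxin, had 4.72 and 4.08, and 1.79 in mutant list 2. UGT73B5 is annotated across UGT73B4, so peaks inside that stretch count for both.

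With any overlap of a mutant peak counted, the classes fell unevenly on the branches of the family. Over all genes 55.8% had BRM-GFP, and of these 41.0% were lost, 15.1% partly retained and 43.9% retained. The same shares apply to the groups of the next paragraph. In group E, which holds the monolignol enzymes UGT72E1 and UGT72E2 and the abscisic acid enzymes UGT71B6 and UGT71C5, 14 of 16 members had BRM-GFP. Of these 12 were retained and 2 were lost. In group G, the UGT85A genes, 5 of 6 had BRM-GFP and all 5 were retained. UGT71C3 of group E and UGT85A3 of group G counted as retained without a mutant peak in their own window. In group L, which holds glucosyltransferases that act on carboxyl groups of auxin, salicylic acid and hydroxycinnamic acids, 10 of 13 had BRM-GFP. Of these 6 were lost, 2 were partly retained and 2 were retained. With equal numbers of peaks, 9 of 9 group E members and 2 of 3 group L members were retained (73.9% over all genes). With mutant peaks that cover at least 50% of a region, 4 of 14 group E members were retained and 9 lost, and in group L 0 of 10 were retained and 9 lost (14.9% retained and 68.8% lost over all genes). Members of a group share ancestry and arrays, so the groups were not tested against each other.

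Group D (UGT73) had 9 of 11 members with BRM-GFP, of which 3 were lost, 4 partly retained and 2 retained. Group H (UGT76) had 5 of 8, with 2, 1 and 2. Of the flavonoid enzymes of group F, UGT78D1 was lost and UGT78D2 partly retained, while UGT78D3 had no BRM-GFP. Neither member of group A had BRM-GFP. Among the hormone enzymes, the cytokinin N-glucosyltransferases UGT76C1 and UGT76C2 were retained and shared a BRM-GFP peak, with folds of 4.45 and 5.26. Their mutant peaks were separate, with folds of 2.03 and 2.08 at UGT76C1 and 2.13 and 2.19 at UGT76C2. The mutant summits of UGT76C2 lay nearest to the start of PIRL1. None of the 5 UGT74 members was retained.

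At 44 of the 49 members with BRM-GFP a region reached within 500 bp of the start (88.5% over all genes), and 23 of the 25 retained members had a mutant region in their own window (84.4%). Mutant summits lay mostly inside the genes. Of the strongest BRM-GFP peaks at members, 56.2% had the summit within 500 bp of the start and 22.9% inside the gene beyond that, against 60.7% and 9.77% over all genes. In brd1/2/13, 26.1% lay near the start and 52.2% farther inside, against 59.6% and 15.7% over all genes. These shares cover the members with a region in each background, so the sets of genes differ. They pool both replicates, with 96 entries at members for BRM-GFP and 46 for the mutant. A peak shared by neighbouring members enters for each of them. At the 23 members with a region in both backgrounds the median summit lay 445 bp after the start for BRM-GFP and 823 bp for the mutant. The median shift per gene was 23 bp (all genes -10 bp). At these same members, 47.8% of BRM-GFP summits and 52.2% of mutant summits lay more than 500 bp after the start. The summits of the 2 backgrounds lay within 200 bp of each other at 15 of the 23 (65.2%, all genes 65.2%), while in the mutant 3 lay farther downstream and 5 farther upstream. At UGT72E1 the mean summits were 1448.5 and 1441 bp after the start, and at UGT71B6, which glucosylates abscisic acid, 1038.5 and 1033.5 bp.

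**Figure D4:**
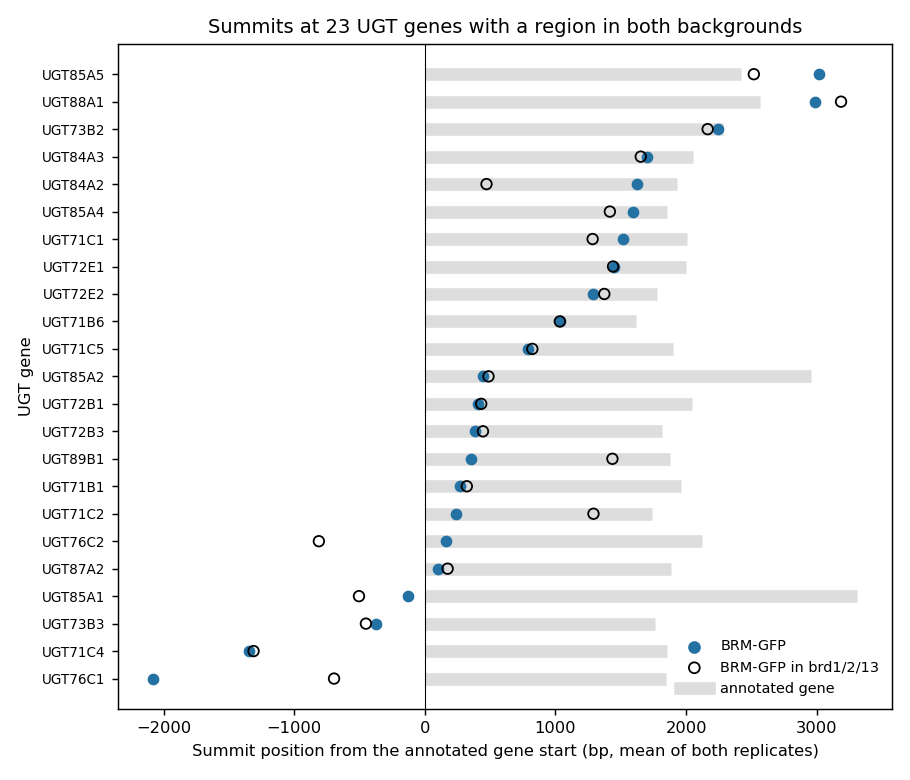
Mean summit position of the strongest peak in BRM-GFP (filled) and in BRM-GFP in brd1/2/13 (open), in bp from the annotated gene start, at the 23 UGT genes with a region in both backgrounds. Grey bars show gene length, and 11 genes for BRM-GFP and 12 for the mutant have the summit more than 500 bp after the start.

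The members' windows held 52 distinct BRM-GFP regions, with a median width of 1810 bp (all regions 982 bp). Of these regions 8 lay in the windows of several members and 30 also in that of a protein-coding gene that the rule did not select. Neither mutant list had a peak at 18 of the 52, 1 had a peak at 13 and both had one at 21. The strongest summit lay in coding sequence at 16 of the 21 regions found in both mutant lists (76.2%, all such BRM-GFP regions 39.3%) and at 5 of the 18 found in neither (27.8%, all such regions 24.2%). Median G+C content in the 201 bp around the summit was 50.2% and 37.6% in these classes, and 41.8% and 38.8% over all regions. At coding summits alone the medians were 52.2% and 47.8% at members. This feature was chosen after the values had been seen, and peak strength differs between the classes, so its part in retention was not tested.

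The 4 motifs were counted around all BRM-GFP summits. TGACG was found in 25% of the 52 windows of 201 bp (all regions 26.5%), TTGACC in 9.62% (9.96%), GAGAGA in 30.8% (39.3%) and CACGTG in 3.85% (8.84%). In the 250 bp upstream of the start, CACGTG was found at 7 of the 64 members (10.9%, all genes 6.49%), TGACG at 13 (20.3%, 18.6%), TTGACC at 7 (10.9%, 12.2%) and GAGAGA at 11 (17.2%, 20.6%). Such matches are short words in the sequence and were not tested as binding sites.

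The UGT85A array on chromosome 1 showed the highest BRD13-GFP values. It holds UGT85A7, UGT85A2, UGT85A5, UGT85A3 and UGT85A1 within 16.7 kb. UGT85A1, which glucosylates cytokinins, had BRD13-GFP folds of 16.4 and 16.8, BRM-GFP folds of 6.36 and 7.35, and mutant BRM-GFP folds of 3.15 and 3.39. UGT85A3 overlapped the same BRD13-GFP peaks, and the same BRM-GFP peak of list 2, from its upstream side. It had BRM-GFP folds of 6.18 and 7.35 and no mutant peak in its window.

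UGT85A2 and UGT85A5 shared a further peak, with BRM-GFP folds of 9.54 and 10.1, and BRD13-GFP folds of 11.3 and 14.1. In the mutant UGT85A2 had 2.50 and 2.92 and UGT85A5 2.11 and 2.92. At the end of the array UGT85A7 had no peak of any GFP protein, and H4K5ac folds of 2.34 and 2.27 in WT and 2.67 and 2.43 in brd1/2/13. The 4 members with BRM-GFP were thus all retained on 3 regions, next to a close copy without any.

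**Figure D5:**
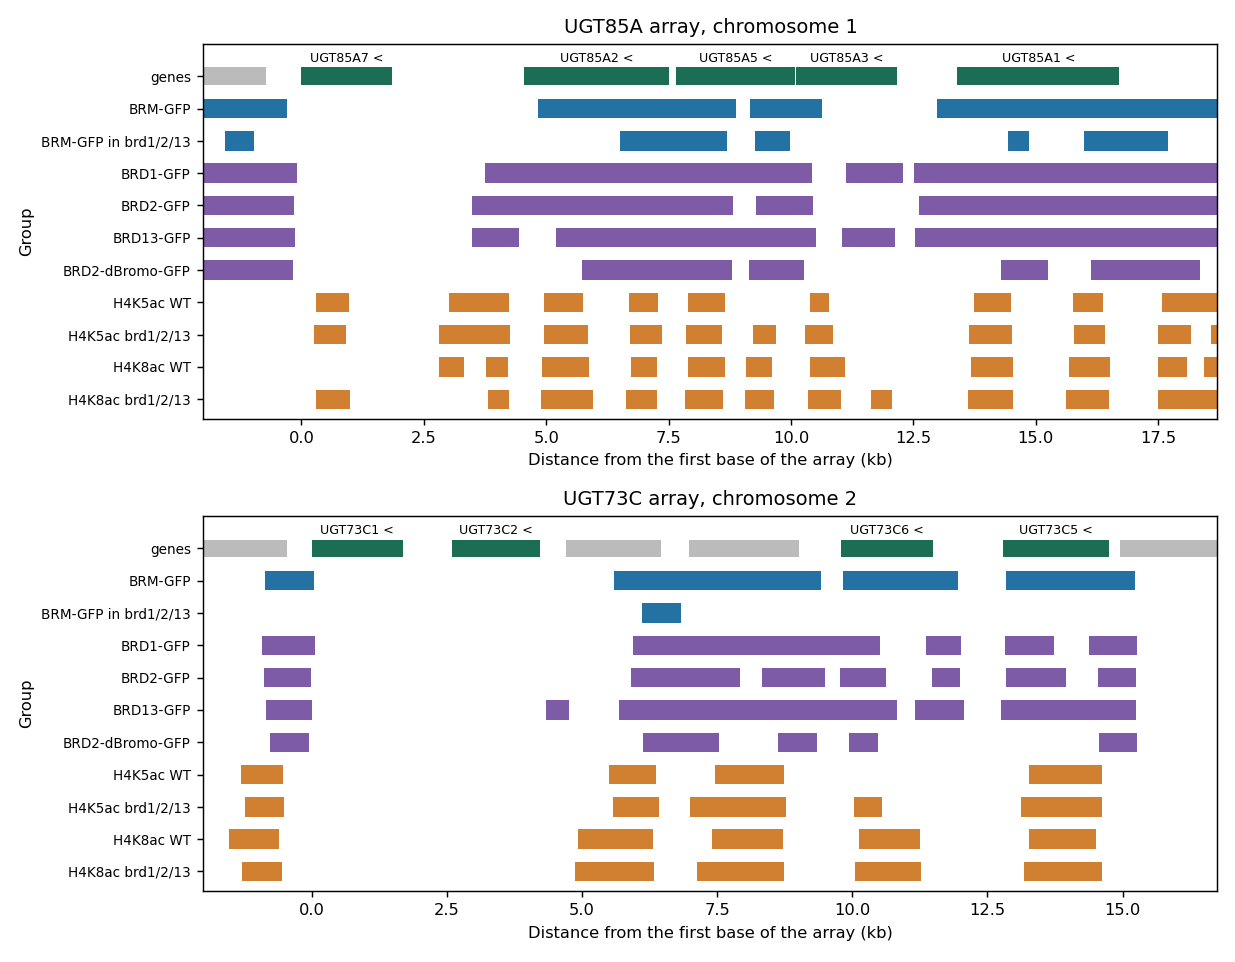
Regions of the 10 groups over the UGT85A and UGT73C arrays, as distance in kb from the first base of each array. Members are green, genes that the rule did not select are grey, and arrows give the direction of transcription. In the UGT85A array BRM-GFP regions lie over UGT85A2, UGT85A5 and UGT85A1 and over the downstream end of UGT85A3, with mutant regions inside them. In the UGT73C array the only mutant region lies at AT2G36770, between UGT73C2 and UGT73C6. That gene was not selected by its name, so its grey colour does not place it outside the UGT family.

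The UGT73C array on chromosome 2 (UGT73C1, UGT73C2, UGT73C6 and UGT73C5, 14.8 kb) was occupied in another way. UGT73C1 and UGT73C6 were lost, UGT73C2 had no BRM-GFP peak, and UGT73C5 was partly retained. AT2G36770 and AT2G36780 lie between UGT73C2 and UGT73C6, were not selected by the rule and are given no status here. The only mutant BRM-GFP region of the array lay at AT2G36770. UGT73C5 inactivates brassinosteroids and the fungal toxin deoxynivalenol. Its BRM-GFP folds were 3.18 and 2.96, with 1.90 in mutant list 2, and its BRD13-GFP folds were 5.22 and 5.65. UGT73C2 had a BRD13-GFP region with folds of 2.57 and 2.04 and H4K8ac folds of 2.50 and 2.50 in WT. The BRM-GFP summit of UGT73C1 lay nearest to the start of its neighbour SWC2, a subunit of the SWR1 remodelling complex. How reads that fit several close copies were placed is not given in the sources used here.

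At the other 8 members with a GFP protein but no BRM-GFP region, the peaks were weak. UGT84B1, an auxin glucosyltransferase, had BRD1-GFP only in list 1 at 2.15 and BRD13-GFP only in list 2 at 1.92 within its window. Both summits lay nearest to the start of AT2G23270. UGT79B1, an anthocyanin xylosyltransferase, had BRD1-GFP folds of 2.99 and 2.38, with summits past its end and nearest to the start of AT5G54050. UGT80B1, a sterol glucosyltransferase of the seed coat, had BRD1-GFP folds of 2.00 and 2.08 and WT H4K5ac folds of 3.65 and 4.42.

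UGT78D3, a flavonol arabinosyltransferase, had BRD1-GFP folds of 3.01 and 2.14, with summits past its end, and no acetylation peak. UGT76E2 had BRD13-GFP folds of 2.87 and 3.02 and a BRM-GFP peak of 2.19 in list 2 alone. The summits of these UGT76E2 peaks lay nearest to the start of AT5G59610. UGT84A1, which esterifies hydroxycinnamic acids, had BRD13-GFP folds of 2.13 and 2.20 and a BRM-GFP peak of 2.09 in list 2 alone. UGT76E12 and UGT71B5 are given with BRD2 below. Background coverage was lowest in the BRM-GFP lists, at 10 and 18.6 reads, and its part in these missing regions was not tested.

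Acetylation was then counted by BRM-GFP status. WT H4K5ac had a region at 24 of 25 retained members (all genes 91.1%), 9 of 10 partly retained (88.6%), 9 of 14 lost members (86.4%) and 8 of the 15 without BRM-GFP (47.8%). WT H4K8ac had one at 25 of 25 retained (89.9%), 9 of 10 partly retained (85.4%), 10 of 14 lost members (81.3%) and 6 of the 15 without BRM-GFP (40.7%). Lost members without WT H4K5ac were UGT75B2, UGT74E2, UGT73C1, UGT73C6 and UGT76E1. UGT74E2 glucosylates the auxin indole-3-butyric acid. It had a BRM-GFP fold of 2.65 in list 2, BRD1-GFP folds of 3.10 and 3.37 and an H4K5ac peak of 2.18 in mutant list 2 alone. That BRM-GFP summit lay 1971 bp after its start, past its end and nearest to the start of AT1G05675. No BRM-GFP peak of list 1 overlapped its window.

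Most members carried the marks in both WT and brd1/2/13. H4K5ac had a region in both at 49 members (69.1% over all genes) and H4K8ac at 46 (63.0%). H4K5ac peaks were found at 52.0 ± 2.83 members in WT and 53.0 ± 2.83 in the mutant, and H4K8ac peaks at 51.0 ± 1.41 and 50 ± 1.41 (SD, n = 2, exact permutation p = 0.667 for each). Single lists ran from 50 to 54 and from 51 to 55 for H4K5ac, and from 50 to 52 and from 49 to 51 for H4K8ac, so the groups overlapped. A H4K5ac region in WT only was found at 1 member, UGT79B1 (1.55% over all genes), with 3.05 and 2.28 in WT and 2.56 in mutant list 2. These summits lay past its end, nearest to the start of AT5G54050. A region in brd1/2/13 only was found at UGT73C6 and UGT73B2 (2.98%). UGT73C6 had 1.80 in WT list 1 and 2.13 and 2.04 in the mutant, and UGT73B2 had 2.34 in WT list 1 and 2.70 and 2.29 in the mutant.

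An H4K8ac region in WT only was found at 4 members (2.89% over all genes), all of group L. UGT74D1 had 1.98 and 1.93 in WT and no mutant peak, and UGT74F2 had 1.58 and 1.76 and no mutant peak. UGT84A1 had 1.61 and 1.80 in WT and 1.76 in mutant list 1, and UGT84A3 had 1.74 and 2.00 in WT and 1.62 in mutant list 1. UGT74D1 and UGT74F2 were thus the members with WT peaks in both lists and none in the mutant. UGT72E3, which like UGT72E2 acts on sinapyl alcohol, had a region in brd1/2/13 only (2.84%), with 1.86 and 1.73 there and 1.64 in WT list 1. The H4K8ac peaks of these 5 members stood at percentiles 1.38 to 18.9 of the folds in their lists.

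Among partly retained members UGT74F1, the other salicylic acid glucosyltransferase, had H4K5ac folds of 5.70 and 5.88 in the mutant. Its WT folds were 2.70 and 2.73, on other peaks. The mutant summits lay at -1172 and -1214 bp from the start, and the WT summits at 260 and 412 bp. UGT76D1, which acts on dihydroxybenzoic acids, had 6.17 and 2.71 in the mutant and 2.58 and 2.48 in WT. The peak of 6.17 had its summit at -1578 bp, nearest to the start of AT2G26470. The other mutant summit lay at 175 bp, and the WT summits at 264 and 190 bp. These members stood out after the values had been seen. The strongest peak of a window may belong to a neighbouring gene, and folds of separate lists were not tested against each other.

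BRD2-GFP and BRD2-dBromo-GFP were found at nearly the same members. Peaks lay at 51.5 ± 2.12 members for BRD2-GFP and at 50 ± 1.41 for BRD2-dBromo-GFP (SD, n = 2, exact permutation p = 0.667). Both had a region at 46 members (58.2% over all genes), BRD2-GFP alone at 3 (5.25%) and BRD2-dBromo-GFP alone at 1 (4.41%). UGT71B5 had BRD2-GFP folds of 1.89 and 2.38 and no BRD2-dBromo-GFP peak. It also had a BRM-GFP peak of 2.76 in list 2 alone and BRD1-GFP folds of 3.10 and 2.91.

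UGT78D1, a flavonol rhamnosyltransferase, had BRD2-GFP folds of 2.22 and 2.14 and BRD2-dBromo-GFP folds of 2.63 and 2.19 on peaks that formed no shared region. UGT76D1 had 2.02 and 2.02 for BRD2-GFP and 1.71 in BRD2-dBromo-GFP list 1. UGT76E12 had the reverse, with BRD2-dBromo-GFP at 2.51 and 2.38 and BRD2-GFP at 2.22 in list 1. The summits of these UGT76E12 peaks lay nearest to the start of AT3G46666. Of these 4 members, only UGT71B5 lacked peaks of 1 BRD2 form altogether. At strongly bound members both forms were listed, with 7.99 and 7.11 for BRD2-GFP and 5.75 and 5.8 for BRD2-dBromo-GFP at UGT73B3.

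Genes that feed UGTs were described by lists of textbook enzymes. Of 16 genes of UDP-sugar supply, 13 had BRM-GFP (55.8% over all genes), of which 6 were lost, 3 partly retained and 4 retained. Of all genes with BRM-GFP, 41.0% were lost, 15.1% partly retained and 43.9% retained, and the same shares apply to the lists that follow. The retained ones were SUS6, a sucrose synthase (3.18 and 3.83, mutant 2.03 and 1.82), the rhamnose synthases RHM1 (4.0 and 4.29, mutant 1.99 and 2.49) and RHM2 (5.81 and 5.21, mutant 2.13 and 2.49), and UER1, which makes UDP-rhamnose (3.91 and 4.95, mutant 1.84 and 1.84). All 8 flavonoid synthesis genes had BRM-GFP (55.8% over all genes). Of these 5 were lost (CHS, CHI, DFR, LDOX and CHIL), 2 were partly retained, and 1 was retained. It was TT7, the flavonoid 3′-hydroxylase (4.36 and 4.95, mutant 2.29 and 2.19).

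All 14 monolignol synthesis genes had BRM-GFP (55.8% over all genes), with 3 lost, 2 partly retained and 9 retained, against 43.9% retained over all genes. C4H, the second enzyme of the phenylpropanoid pathway, was among the retained genes, with BRM-GFP folds of 11.4 and 10.3 and mutant folds of 2.53 and 3.14. At PAL2, 4CL1, HCT, CCoAOMT1, CCR1, F5H and CAD5, which were retained as well, BRM-GFP folds ran from 5.0 to 6.79 and mutant folds from 1.76 to 2.73.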

How the data were processed

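The samples were ChIP-seq peak lists of 20 immunoprecipitated samples, 2 per group. The 10 inputs were not analysed here. Per the labels' processing notes, the submitters used Bowtie, MACS2 2.1.1, deepTools and the TAIR10 build. For the use of inputs, read filters and reads that fit several places, the method is not given in the sources used here. Every sample came with a deposited list of peaks with a score, a fold enrichment (a ratio), a −log10 p and a −log10 q per peak, as the authors' peak caller gave them, and the position of the summit. The deposited score is 10 times the −log10 q and was used only to rank peaks. Fold was used to choose and describe the strongest peak of a gene, −log10 q to filter peaks, and −log10 p with fold to solve for pileup and background, whose lowest values gave the background coverage. The antibody field of the acetylation samples names GFP, and their titles, which name the marks, were followed.

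Genes and sequences came from RefSeq's TAIR10.1 annotation and genome, and only peaks on its nuclear chromosomes were used. Peaks elsewhere occurred only in the mutant BRM-GFP lists, where 6129 of 6131 and 7044 of 7051 peaks were kept. Peak names hold the tag rd in these lists and RmDup in all others. Whether the lists were processed alike was not tested. Peaks of a group were merged where they overlapped by 1 bp, and a merged stretch with a peak of each of 2 replicates was a region. A gene was assigned every region that overlapped its body or the 1 kb upstream. A gene was retained if any of its BRM-GFP regions had peaks in both mutant lists, and lost if none had a peak in either. Numbers of members with a peak were compared over lists by an exact two-sided permutation test. Windows, thresholds, overlaps, numbers of peaks and single replicates were varied as alternatives. The region, status and permutation steps were tested on simulated data, in which all planted calls were recovered. The planted peaks were narrow and lay at genes whose windows overlapped no other gene's window. Wide or shared regions, strongest peaks, summits and motifs were not covered by this test. Python 3.11.15, numpy 2.4.6, pandas 2.3.3 and scipy 1.17.1 were used.

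The members, the lists of pathway genes, motifs and the rule for named genes were chosen with earlier results of these data known. By that rule, values are given for the 8 retained, 8 lost and 4 partly retained members with the highest mean BRM-GFP fold (with ties), members with an acetylation or BRD2 region in 1 of 2 groups only, those with a GFP protein but no BRM-GFP region, and those of the 2 largest arrays. Values of other members, and the features of summits and sequences, were added after the values had been seen. Peak lists carry no read totals, and 2 lists per group give a limited measure of spread. The values of 1 gene of the monolignol list are not reported here.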

Additional observations from a re-analysis of the deposited data

How the results depend on the processing

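Of 121 alternative values for 13 counts, 108 stayed within 1.5 times the first count, and of 40 alternative values for 4 differences, 31 kept their direction, whatever their size. The body-only window, the 500 bp on each side of the start, the summit rule, both q thresholds and the intersection of peaks kept every count of members with a region within that range. With equal numbers of peaks (6129 per list), the members with a region fell to 27 for BRM-GFP, 31 for BRD1-GFP, 30 for BRD2-GFP, 32 for BRD13-GFP, 22 for BRD2-dBromo-GFP, 12 and 15 for H4K5ac in WT and brd1/2/13, and 14 and 13 for H4K8ac. Under this setting 1 member was lost and 5 were partly retained, 1 group L member was lost, the fall of BRM-GFP in brd1/2/13 shrank to -0.5 members per list, and the H4K8ac difference turned from -1 to 1. With mutant peaks that cover at least 50% of a region, 31 members were lost and 11 retained, of which 4 were in group E. Fewer peaks, by construction, give fewer regions. The BRD2-dBromo-GFP difference of -1.5 became 0.5 by summits, the H4K5ac difference of 1 became -0.5 at q of 0.001 or less, and the H4K8ac difference was 0 with gene bodies only. The cause was not tested. Leaving out 1 list in turn gave differences of -24 to -19 members for BRM-GFP, -3 to 0 for BRD2, -1 to 3 for H4K5ac and -2 to 0 for H4K8ac, the H4K5ac value of -1 without WT replicate 2 or without brd1/2/13 replicate 2. It gave 14 to 20 lost and 24 to 32 retained members. Without a mutant list no member can be partly retained, so that class has no value there. No paired analysis was possible because the results are counts over peak lists without a model, and the replicate numbers are not stated to mark a shared planting or batch. The mutant BRM-GFP lists had more background coverage and fewer peaks than the BRM-GFP lists, and the effect of depth was not tested.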
